A study of Mus musculus with 8 samples.

Results

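Mx1, Mx2, Rsad2, Cmpk2 and Bst2 encode antiviral effectors that act inside infected cells or at their surface, and their mRNA signals were followed in mouse intestinal epithelial IEC10 cells left untreated or stimulated with IFN-λ2 or IFN-β. Their probes were taken by the gene name printed in the array design, which gave 6 probes for the 5 genes out of 39429 non-control probes on the array. Cmpk2 had 2 probes, of which the brighter is called the lead probe here, and each other gene had 1. All 6 probes passed the filter on low values that left 25971 probes for testing, and all 6 were well above background on all 8 arrays, controls included. No member feature was saturated or excluded on any array.

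The arrays comprised 2 of untreated control cells (replicates 2 and 3), 3 of cells given IFN-λ2 at 20 ng/mL and 3 of cells given IFN-β at 500 U/mL, in both cases for 9 h. The doses were set in different units, so the comparison between the cytokines holds for these doses. The paper describes both doses by a similar, submaximal share of the maximal Mx2 induction, and chose 9 h by the time course of Mx2. The Mx2 levels under the cytokines are therefore not independent of the choice of doses and time. All groups used the same immortalized cell line, derived from a transgenic mouse that carries firefly luciferase under the Mx2 promoter, and all were grown for 21 days on transwell inserts. The transgene places a reporter, not an additional Mx2 copy, behind that promoter. Nothing in the labels says whether replicates came from separate cultures, so the p-values measure the spread between these samples, which may be technical. Each replicate number had its own slide, and a group always lay at the same position on the slide, so that position and treatment cannot be told apart. The epithelial label was checked against 10 markers, among them Epcam, Cdh1 and Vil1, and 10 of 10 were well above background on every array. With IFN-λ2 Ocln, Cdh1 and Krt19 were higher than control (log2 0.58, 0.44 and 0.41) and Cldn4 lower (-0.54). Between the cytokines Ocln (0.61) and Krt19 (0.58) were higher and Cldn4 (-0.36) lower with IFN-λ2 (limma, adjusted p = 0.0135, 0.00552 and 0.0293), and their part in the results was not tested. Of 8 leukocyte markers 4 (Cd3e, Itgam, Csf1r and Cd14) were well above background on all 8 arrays, while Ptprc, the pan-leukocyte marker, was so on 2. Their summed signal ranged from 15323 to 18712 units in control, from 12461 to 14637 with IFN-λ2 and from 12452 to 20016 with IFN-β, and its part in the results was not tested either. Itgax, which marks dendritic cells, did not exceed the floor on enough arrays to be tested. Of 4 endothelial markers 1 and of 7 fibroblast and smooth muscle markers 0 were well above background on all 8 arrays. The summed signal of the fibroblast and smooth muscle markers ranged from 122 to 132 units in control, from 102 to 112 with IFN-λ2 and from 124 to 253 with IFN-β, without overlap between the cytokines, and its part in the results was not tested.

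Type I interferons such as IFN-β signal through the Ifnar1 and Ifnar2 receptor chains, and IFN-λ through Ifnlr1 and Il10rb. Both receptors act through Jak1 and Tyk2 and lead to a complex with Stat2 and Irf9 that binds interferon-stimulated response elements in gene promoters. Mx1 and Mx2 are large dynamin-like GTPases that block virus replication, Mx1 in the nucleus, where it acts on influenza viruses, and Mx2 in the cytoplasm. Viperin, the product of Rsad2, is a radical SAM enzyme that turns CTP into a chain terminator of viral RNA synthesis, and its gene neighbour Cmpk2 encodes a mitochondrial nucleoside monophosphate kinase. Tetherin, the product of Bst2, holds budding enveloped viruses at the cell surface by means of a membrane-spanning segment and a GPI anchor. Many laboratory mouse strains carry defective Mx genes, and the GRCm38.p6 gene table, built on a strain of that kind, lists Mx1 and Mx2 as transcribed pseudogenes. The array reports their RNA and not whether protein was made.

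The probe sequences are shown because they define what was measured for each gene. Each probe has 60 bases, of which the first 30 are printed 5′ to 3′ as the array design gives them, with no base singled out.
Mx1: actttccaaggaaactggacgtttccactt
Mx2: aagagaaagaggctctcaaagctcagcaag
Rsad2: tgtttggagtttggagtctaatggttgcat
Cmpk2 lead probe: gaaactccatagtagaacatggtattgaat
Cmpk2 second probe: ccctcgagagagacagtcctgcagaaggtt
Bst2: aggtgaactctggcagctccatggtggtct
In mm9, as the design gives it, the Mx1 probe lies at chr16:97668644-97668703 on the minus strand and the Mx2 probe at chr16:97782327-97782386 on the plus strand. On chromosome 12 the Rsad2 probe lies at chr12:27127859-27127918 on the minus strand, and the Cmpk2 probes lie on the plus strand at chr12:27164119-27164178 (lead) and chr12:27162935-27162994 (second). The Bst2 probe lies at chr8:74058603-74058662 on the minus strand. Whether these positions are coding or untranslated was not determined, because no mm9 annotation was used here. The Mx1 and Mx2 probes, which target paralogs, had a longest shared run of 7 bases. Against the other 39423 probes on the array the longest run shared by any member probe was 13 to 15 bases.

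IFN-λ2 and IFN-β raised all 5 genes over control, and Bst2 by the smallest factor with each cytokine. All 6 probes were at an adjusted p under 0.05 in both comparisons (limma with Benjamini-Hochberg adjustment over all probes tested), and all 6 rose by at least 2-fold. What is called the methods' t-test here is a plain comparison of 2 groups with equal variances on the same values, since the methods give a 2-group analysis without naming its test. It left the folds as they were and ended 3 of the 6 calls for IFN-β after adjustment. These were Mx1 (adjusted p = 0.0592), Rsad2 (0.0581) and the second Cmpk2 probe (0.0971). Over the whole array, 10.02% of probes were called higher and 8.55% lower with IFN-λ2, and 2.67% were both called and at least 2-fold higher. With IFN-β 1.44% were called higher, and 0.882% were also at least 2-fold higher. The median log2 change of all probes was 0.00 with IFN-λ2 and 0.02 with IFN-β. Every stimulated array was above both control arrays for all 6 probes, which held for 24.7% of all probes with IFN-λ2 and 15.04% with IFN-β. Both comparisons share the same 2 control arrays. Values are signals scaled to a 75th percentile of 1500 per array, called units below, and signals of different probes are not compared.

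Both Mx genes rose with each cytokine. Mx1 read 61.9 and 43.5 units on the control arrays, 1515, 1653 and 1443 with IFN-λ2 and 720, 840 and 801 with IFN-β. The 3 groups did not overlap, and IFN-λ2 arrays were the highest. Mx1 rose 29.6-fold with IFN-λ2 (log2 4.89, SE 0.16, adjusted p = 4.82e-06) and 15.1-fold with IFN-β (log2 3.92, SE 0.16, adjusted p = 1.97e-05). With normexp background correction in place of the scanner's own, the Mx1 log2 changes were smaller, at 3.78 and 2.82. These lie below the normexp changes of Mx2 (4.22 and 4.03) and Rsad2 (4.27 and 3.36). Mx2 read 362 and 261 units in control, 6714, 6485 and 6927 with IFN-λ2 and 5455, 5808 and 5864 with IFN-β. Both stimulated groups lay far above control, and the lowest IFN-λ2 array was above the highest IFN-β array. Mx2 rose 21.8-fold with IFN-λ2 (log2 4.45, SE 0.14, adjusted p = 3.89e-06) and 18.6-fold with IFN-β (log2 4.21, SE 0.14, adjusted p = 7.13e-06).

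**Figure D1:**
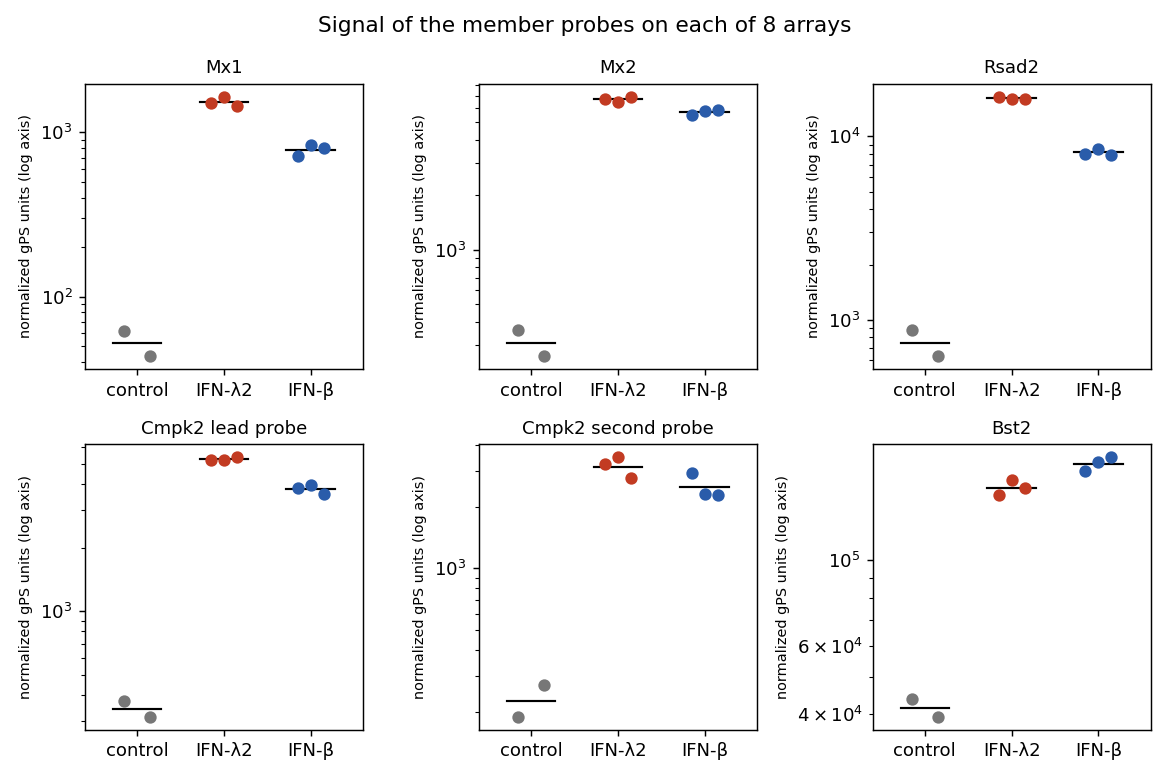
Normalized signal of each member probe on each of the 8 arrays (units, log axis that differs between panels); points are arrays and bars are means of log2 values. Every stimulated array lies above both control arrays for all 6 probes, and for Bst2 the IFN-β arrays are the highest.

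Rsad2 and its neighbour Cmpk2 both rose with each cytokine. Rsad2 read 878 and 634 units in control, 16492, 15985 and 15978 with IFN-λ2 and 8056, 8582 and 7960 with IFN-β. The IFN-λ2 arrays were close together, with a coefficient of variation of 1.83% (n = 3), and did not overlap the IFN-β arrays. Rsad2 rose 21.6-fold with IFN-λ2 (log2 4.44, SE 0.13, adjusted p = 3.68e-06) and 11.0-fold with IFN-β (log2 3.46, SE 0.13, adjusted p = 1.65e-05). The lead probe of Cmpk2 read 375 and 315 units in control, 5220, 5215 and 5362 with IFN-λ2 and 3833, 3959 and 3591 with IFN-β. Again the groups did not overlap and the IFN-λ2 arrays were highest. By this probe Cmpk2 rose 15.3-fold with IFN-λ2 (log2 3.94, SE 0.09, adjusted p = 1.78e-06) and 11.0-fold with IFN-β (log2 3.46, SE 0.09, adjusted p = 5.17e-06). The second Cmpk2 probe gave similar folds with more scatter. It read 189 and 271 units in control, 3217, 3483 and 2768 with IFN-λ2 and 2929, 2306 and 2293 with IFN-β. Here the stimulated groups overlapped each other, although both were above control. Its log2 changes were 3.79 with IFN-λ2 (SE 0.19, adjusted p = 4.07e-05) and 3.46 with IFN-β (SE 0.19, adjusted p = 8.84e-05).

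Bst2, the gene of tetherin, rose by a smaller factor than the other members. Its probe read 43743 and 39356 units in control, 147289, 160802 and 153347 with IFN-λ2 and 169740, 179071 and 184443 with IFN-β. The IFN-β arrays were the highest, and the groups did not overlap. Bst2 rose 3.70-fold with IFN-λ2 (log2 1.89, SE 0.08, adjusted p = 1.93e-05) and 4.28-fold with IFN-β (log2 2.10, SE 0.08, adjusted p = 1.71e-05). On the stimulated arrays it reached 46.4% to 56.5% of the highest value of the array, and the scanner set no saturation flag there.

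**Figure D2:**
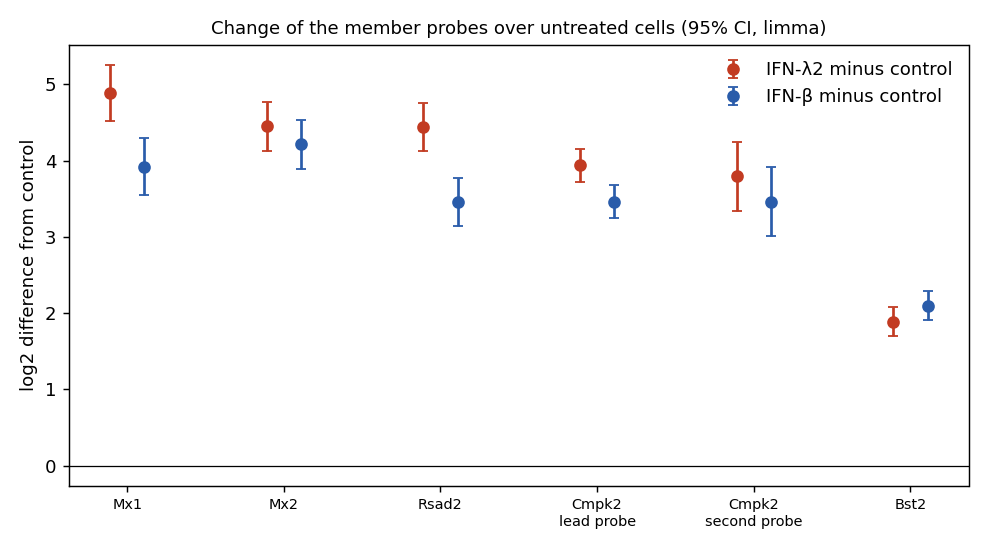
Log2 difference from control of each member probe with IFN-λ2 and with IFN-β (limma estimate; bars are 95% confidence intervals). The changes run from 1.89 for Bst2 to 4.89 for Mx1 with IFN-λ2 and from 2.10 for Bst2 to 4.21 for Mx2 with IFN-β; with normexp Mx1 was at 3.78 with IFN-λ2 and 2.82 with IFN-β, below Mx2, Rsad2 and the Cmpk2 lead probe in both.

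The direct comparison asked whether the cytokines at these doses gave different levels of each effector. IFN-λ2 gave the higher signal for Mx1, Rsad2 and the lead probe of Cmpk2, which makes 3 of 6 probes against 5.53% of all probes tested (5.68% were lower). Mx1 was 1.95-fold higher (log2 0.97, 95% confidence interval 0.63 to 1.30, adjusted p = 0.00706) and Rsad2 1.97-fold higher (log2 0.98, interval 0.70 to 1.26, adjusted p = 0.00357). Cmpk2 was 1.39-fold higher by its lead probe (log2 0.47, interval 0.28 to 0.67, adjusted p = 0.0136). The Cmpk2 call was lost with normexp background correction (adjusted p = 0.184), without IFN-λ2 replicate 1 (0.0543) and without IFN-β replicate 3 (0.0555). By the second Cmpk2 probe the difference was 0.33 on the log2 scale (interval -0.07 to 0.74, adjusted p = 0.275). Mx2 did not pass the test, with a log2 difference of 0.23 (interval -0.05 to 0.52, adjusted p = 0.282), although its groups did not overlap. The interval takes in the spread of the 2 control arrays. The log2 SD of Mx2 was 0.34 there, 0.05 with IFN-λ2 and 0.06 with IFN-β. A limma fit on only the groups compared gave an SE of 0.06 in place of 0.12, and an adjusted p of 0.073. Bst2 did not pass the test either, with a log2 difference of -0.21 (interval -0.38 to -0.04, adjusted p = 0.128, unadjusted p = 0.0247). Across the array, 16.04% of probes had every IFN-λ2 array above every IFN-β array, as 4 of the 6 member probes did, and 16.3% had the reverse, as Bst2 did.

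Arrays that shared a slide gave the same signs. Within slides of replicates 1, 2 and 3 the log2 difference of IFN-λ2 minus IFN-β was 1.07, 0.98 and 0.85 for Mx1. Rsad2 gave 1.03, 0.90 and 1.01, and the lead probe of Cmpk2 gave 0.45, 0.40 and 0.58. On each slide the IFN-λ2 array was thus the higher for these 3 probes. The second Cmpk2 probe gave 0.14, 0.60 and 0.27. For Mx2 the slides gave 0.30, 0.16 and 0.24, and for Bst2 -0.20, -0.16 and -0.27. Under normexp the median of all probes moved to 0.27 in this comparison, and relative to that median Mx2 was at -0.08 and Bst2 at -0.49, so the sign for Mx2 turned, while Mx1 was at 0.69, Rsad2 at 0.65 and the lead probe of Cmpk2 at 0.22.

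**Figure D3:**
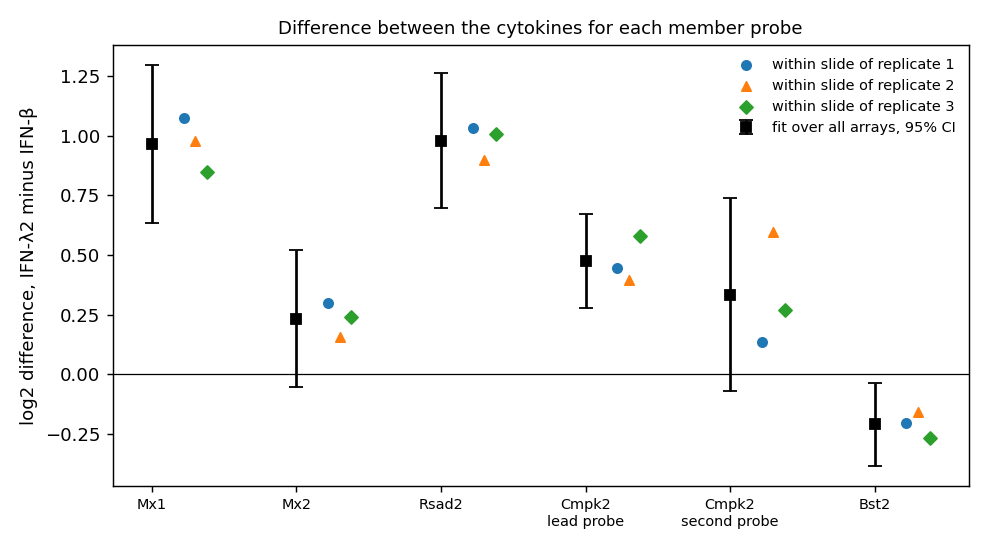
Log2 difference of IFN-λ2 minus IFN-β for each member probe (squares, limma estimate with 95% confidence interval) and within the slide of each replicate number (coloured points). Mx1 and Rsad2 lie near 1, Mx2 at 0.23 with an interval that includes 0, and Bst2 below 0 on every slide. The intervals take in the spread of the control arrays, which was larger for Mx2 than that of the cytokine groups.

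To ask whether members differed from each other in this difference, the within-array log2 ratio of each pair of genes was compared between the 3 IFN-λ2 and 3 IFN-β arrays. For 9 of 10 pairs the ratios of the cytokine groups did not overlap, with an exact two-sided permutation p of 0.1, the smallest that 3 against 3 arrays allow, and an adjusted p of 0.111. This exact test could therefore not pass the threshold for any pair, and no model was fitted to the ratios. It also did not use the pairing of the arrays by slide. Over all pairs of probes tested, the ratios did not overlap in 34.3%. With normexp the Mx2 to Cmpk2 ratios overlapped too, which left 8 of 10 pairs. The Mx1 to Mx2 ratio was higher with IFN-λ2 by 0.73 on the log2 scale, and the Rsad2 to Cmpk2 ratio by 0.51. Mx2, the reference in the former, is the gene by which the paper describes the doses. The Rsad2 to Bst2 ratio shifted by 1.19 and the Mx1 to Bst2 ratio by 1.17. The Mx1 to Rsad2 ratio overlapped between the cytokines, with a shift of -0.01 (exact permutation p = 1).

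In untreated cells the 2 control arrays differed more for several members than for the array as a whole, where the median absolute log2 difference was 0.16. Control replicate 2 was above control replicate 3 by 0.51 on the log2 scale for Mx1, 0.48 for Mx2, 0.47 for Rsad2, 0.25 for the Cmpk2 lead probe and 0.15 for Bst2. The second Cmpk2 probe went the other way, at -0.52. Of all probes tested 48.4% were higher on control replicate 2. Among 26 other antiviral effectors 19 were higher there, with a median of 0.15. Leaving out each array in turn kept the Mx1 change with IFN-λ2 between 4.63 and 5.14 and lost no member call against control. Both ends of this range come from fits with a single control array, which is assumed there to vary like the stimulated groups.

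The promoters of 3 members are shown because these genes rose together with both cytokines. They come from the RefSeq table of GRCm38.p6, which had entries for Rsad2, Cmpk2 and Bst2, and run 5′ to 3′ on the gene's strand up to the base before the start site. Capitals mark matches on either strand to GAAA, any 2 bases and GAAA, a core of the interferon-stimulated response element, or to TTC, any 3 bases and GAA, a core of the gamma-activated site.
Rsad2: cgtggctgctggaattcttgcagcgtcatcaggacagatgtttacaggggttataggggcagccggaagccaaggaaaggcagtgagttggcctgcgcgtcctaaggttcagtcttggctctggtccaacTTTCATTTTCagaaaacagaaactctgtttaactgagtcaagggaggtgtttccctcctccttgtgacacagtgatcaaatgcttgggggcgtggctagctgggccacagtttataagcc
Cmpk2: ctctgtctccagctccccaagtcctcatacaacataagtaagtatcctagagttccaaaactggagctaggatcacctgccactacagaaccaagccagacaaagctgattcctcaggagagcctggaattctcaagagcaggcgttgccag
Bst2: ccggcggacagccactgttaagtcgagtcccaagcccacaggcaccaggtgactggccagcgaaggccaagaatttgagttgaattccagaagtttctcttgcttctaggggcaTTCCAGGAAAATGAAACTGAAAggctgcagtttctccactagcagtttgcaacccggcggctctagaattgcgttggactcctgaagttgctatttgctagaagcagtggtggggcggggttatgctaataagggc
The Rsad2 sequence is chr12:26456453-26456702 on the minus strand and the Bst2 sequence chr8:71537473-71537722 on the minus strand, while for Cmpk2 the 152 bases of chr12:26468965-26469116 on the plus strand are shown. Rsad2 had a single match to the response element core, read on its opposite strand, at positions -120 to -111 from the start site. Bst2 had 2 such matches that overlap, at -130 to -121 and at -124 to -115, and a match to the gamma-activated core at -136 to -128 that overlaps the first of them. No match to either motif was found in the 152 bases shown for Cmpk2. That stretch is shorter than the others because the rest of its window lies inside the annotated gene. The shares below, for longer windows, do not apply to it directly. The response element core was present in 2.98% and the gamma-activated core in 7.02% of the 32851 promoter windows of 250 bases in the table. A match is a description of letters and was not tested for binding. Mx1 and Mx2 are named only.

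The genes of the signalling pathway that induces these effectors were read from a list of 16. With IFN-λ2 8 of 16 rose and 1 fell, against 10.02% and 8.55% of all probes, and with IFN-β 8 rose, against 1.44%. With each cytokine those that rose included Stat2, Irf9, Irf1, Irf7, Usp18, Socs1 and Isg15. Irf7, a transcription factor of interferon induction, changed by 3.67 with IFN-λ2 and 3.85 with IFN-β on the log2 scale, and Usp18, a protease that limits interferon signalling, by 3.77 and 3.57. Socs3, a feedback inhibitor of Jak kinases, fell by 0.71 with IFN-λ2 (adjusted p = 0.00179) and was lower than with IFN-β (adjusted p = 0.00869), the single gene of the 16 past the test between the cytokines, where 5.53% of all probes were higher and 5.68% lower. The receptor chains, Jak1, Tyk2 and Stat3 did not pass the test in any comparison.

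Other antiviral effectors made up a list of 26 genes, and 22 rose with each cytokine, against 10.02% of all probes with IFN-λ2 and 1.44% with IFN-β. Their median log2 change was 2.85 with IFN-λ2 and 2.59 with IFN-β, against medians near 0 for all probes. Between the cytokines 8 were higher and 2 lower with IFN-λ2, against 5.53% and 5.68% of all probes. The higher ones included Oas2 (log2 1.38, adjusted p = 0.00141), an oligoadenylate synthetase that activates RNase L, and Ifit1 (0.71, adjusted p = 0.00245), which binds viral RNA caps. The lower ones were Adar (-0.56, adjusted p = 0.00445), an RNA-editing enzyme, and Samhd1 (-0.37, adjusted p = 0.0151), which depletes deoxynucleotides.

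Genes that share a family or biochemical step with the members were read from 5 lists. With IFN-λ2 8 of their 64 genes tested passed the limma test and 4 passed the methods' t-test after adjustment. Over the whole array 10.02% of probes were called higher and 8.55% lower by limma in this comparison, so this share is not a result about these lists. Of 9 other dynamin superfamily genes tested, only Atl1, an endoplasmic reticulum GTPase, passed the test, and it fell by 0.62 with IFN-λ2 (adjusted p = 0.0154) and was lower than under IFN-β (log2 -0.45, adjusted p = 0.0431). It was the single gene of the 64 past the limma test between the cytokines, where 5.53% of all probes were higher and 5.68% lower. There 11 of the 64 had an unadjusted p under 0.05, beside 6583 of 25971 probes. Neither count was above the share of all probes. Among 12 pyrimidine and deoxynucleoside kinases Dtymk, the thymidylate kinase, rose by 0.29 (adjusted p = 0.0268) and Nme3 fell by 0.37 (adjusted p = 0.03) with IFN-λ2. Of 17 radical SAM and iron-sulfur assembly genes Nubp2 rose by 0.42 and Ciapin1 by 0.26 with IFN-λ2. None of 5 viperin partners passed by limma in any comparison. An unadjusted p under 0.05 was found for 1 with IFN-λ2, 0 with IFN-β and 2 between the cytokines, where 1 passed the methods' t-test after adjustment. In the list of 21 genes of GPI anchor synthesis Pigm rose by 0.47, Pgap3 rose by 0.33 and Piga fell by 0.46 with IFN-λ2. Limma called 429 of 25971 probes with IFN-β, and 3119 had an unadjusted p under 0.05. Neither limma count below for the 64 genes was above these shares, and 0 of 64 called is near the first. With IFN-β none of the 64 genes tested in these 5 lists passed by limma or by the methods' t-test after adjustment, and 7 had an unadjusted p under 0.05 by limma.

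**Figure D4:**
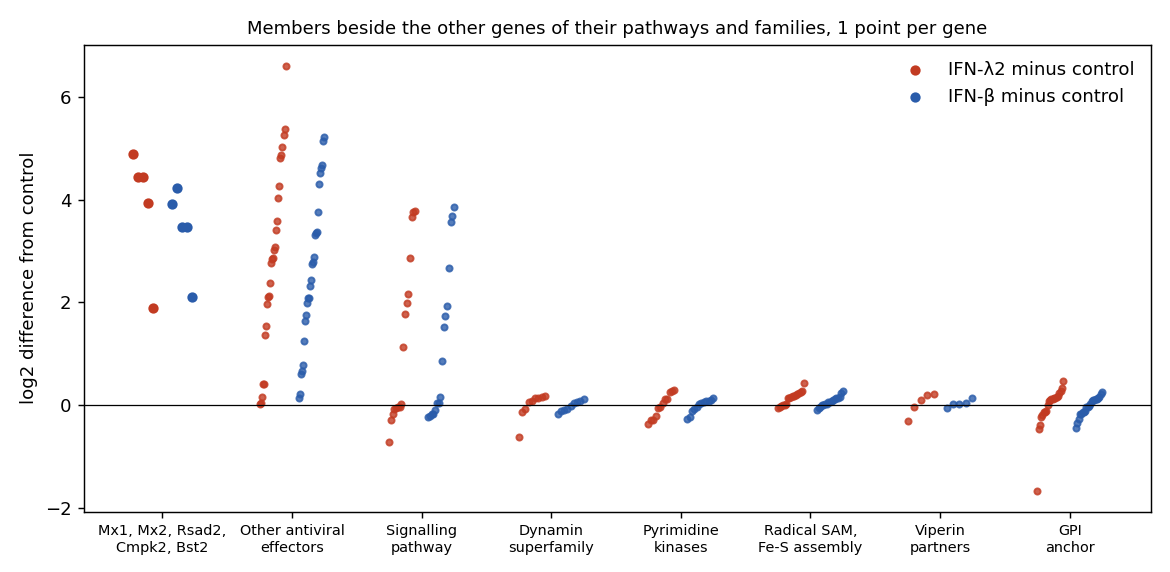
Log2 difference from control, 1 point per gene, for the 5 members (Cmpk2 by its lead probe) and for 7 lists of genes of their pathways and families. The members and most other antiviral effectors lie above 1.5, whereas the family lists lie near 0, apart from a GPI anchor gene at -1.66 with IFN-λ2 that did not pass the test.

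The gene table was also used for the order of genes around the members. Of 20 neighbours within 3 genes on each side, 13 had a probe and 9 were tested. With IFN-λ2 5 were higher and 1 lower than control, against 10.02% of all probes higher and 8.55% lower. That count includes Fam3b, and 1 of the 9 passed with IFN-λ2 by the methods' t-test after adjustment. No neighbour passed with IFN-β by limma or the methods' t-test after adjustment. Limma called 429 of 25971 probes in that comparison, so 0 of 9 is near the share of all probes. By limma 4 of 9 had an unadjusted p under 0.05 with IFN-β, beside 3119 of all probes. On chromosome 16, Bace2, a protease gene next to Mx1, stood 3.12-fold above control under IFN-λ2 (adjusted p = 0.00161) and 1.94-fold above its IFN-β level (adjusted p = 0.0129). Tmprss2, a serine protease gene next to Mx2, stood 2.27-fold above control under IFN-λ2 (adjusted p = 0.00545), at 0.91 of control under IFN-β (adjusted p = 0.807), and the cytokines differed by 2.51-fold (adjusted p = 0.00342). Between Mx1 and Mx2, Fam3b was well above background on 2 of 8 arrays, so no fold is given. The mean of Fam3b was above the floor with IFN-λ2 (27.4 units), but not in control (7.48) or with IFN-β (12.6). Its entry into the test was therefore not independent of its being called higher with IFN-λ2. On chromosome 12, Rnf144a near Rsad2 fell by 0.87 on the log2 scale with IFN-λ2 (adjusted p = 0.0363). Beside Bst2, Mvb12a (1.26-fold, adjusted p = 0.0465) and Nxnl1 (1.64-fold, adjusted p = 0.021) were higher with IFN-λ2. Tmem221 stood at 0.69 of its IFN-β level with IFN-λ2 (adjusted p = 0.0277).

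**Figure D5:**
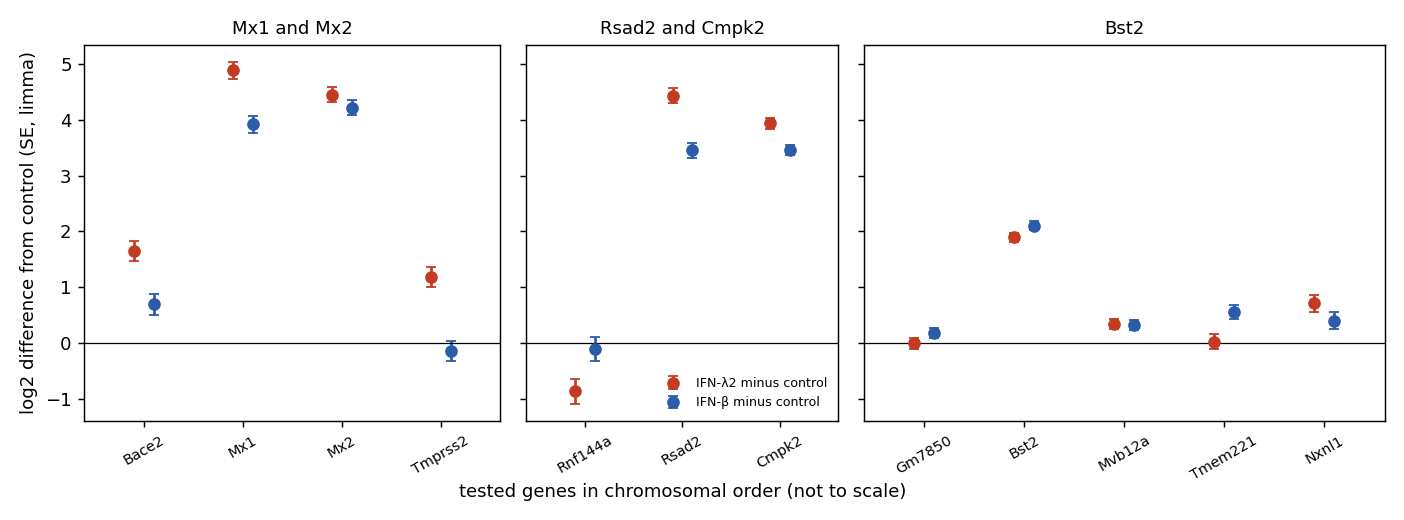
Log2 difference from control (points, limma estimate; bars, SE) for members and tested neighbours at the 3 loci in gene-table order, not to scale, leaving out a gene near background and a non-coding gene. Bace2 and Tmprss2 lie above 1 with IFN-λ2, and at 0.69 and -0.14 with IFN-β.

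The genes with the most similar profiles over the 8 arrays, by Euclidean distance of log2 values from the control mean among 16061 genes, are given as a description. For Mx1 they were Apol9b (distance 0.44), Gm4951 and Apol9a, and for Mx2 they were Ifi44 (0.38), Gm9706 and Trim30a. Rsad2 was nearest to Phf11d (0.36), Phf11a and Tgtp2. Cmpk2 was nearest to Ifit1 (0.36), Usp18 and Tgtp2, and Bst2 to Helz2 (0.33), Oas1c and Irf9. Among the members, Rsad2 and Cmpk2 were closest to each other (0.88), followed by Mx1 and Mx2 (0.94), and Bst2 stood 4.27 to 6.08 from the others.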

How the data were processed

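Gene expression was measured on 1-colour Agilent arrays, 8 in all. The authors deposited feature intensities of each array from Feature Extraction 10.7.3.1, with background already subtracted, and a table of processed intensities scaled to 1500 at the 75th percentile and floored at 15, here an alternative that differs from the values used by a constant factor per array for the members. The labels give Trizol and the methods a column kit for RNA extraction.

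Control features, flagged or outlying features and features with a pixel coefficient of variation over 0.5 were left out. Copies of a probe were averaged geometrically, and arrays were brought to the same 75th percentile (1500). Log2 was taken after raising lower values to 15, and limma was run on probes that exceeded 15 on 2 or more arrays, using version 3.58.1 in R 4.3.3, with 1 mean per group over all 8 arrays and Benjamini-Hochberg adjustment. The script was tested on simulated data. The precision is limited by the number of arrays. Probe sequences come from the array files and promoters from RefSeq (GRCm38.p6).

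Members and lists were chosen with earlier results of these data known. Named genes were all member probes, the 3 nearest profiles per member, the 3 nearest genes on each side, and genes of the lists past the test or at the extremes. Replicate numbers shared a slide, and deviations from group means of same-numbered IFN-λ2 and IFN-β arrays correlated at 0.18, 0.26 and 0.30, so numbers pair these arrays; with control the correlations were -0.06 to 0.10. Alternatives covered background correction, scaling, floor, feature and probe filters, the deposited table, the replicate block, arrays left out, arrays in the fit, variance prior and the methods' t-test (equal variances, on the 2 groups compared). A control replicate 1 was not analysed here. Values of some genes of the lists are not reported here.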

Additional observations from a re-analysis of the deposited data

How the results depend on the processing

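Over 20 alternatives per probe, 120 of 120 member values kept their side of the threshold for IFN-λ2 against control, 117 of 120 for IFN-β against control and 117 of 120 between the cytokines, where leaving out either control array and fitting only the groups compared are the same fit, and no member change reversed before centring on the median of all probes. Relative to that median under normexp the Mx2 difference between the cytokines turned to -0.08. The 3 lost for IFN-β, Mx1 (adjusted p = 0.0592), Rsad2 (0.0581) and the second Cmpk2 probe (0.0971), were lost under the methods' t-test, which left 3 of 6 member probes called. The cause was not tested. The block by replicate number (slide) changed no member call and gave 263 probes called for IFN-β against control, beside 429 without it. The count of all probes called, 4823 for IFN-λ2 against control, 429 for IFN-β against control and 2911 between the cytokines, became 1054, 215 and 643 with normexp and 1618, 100 and 1761 with the methods' t-test. At the unadjusted p and fold thresholds that the methods give that t-test called 365, 159 and 283 probes and 6, 6 and 0 member probes, and with their q-value as well 365, 79 and 283 probes and 6, 3 and 0 member probes. A fit on only the groups compared gave 240 for IFN-β. Without a control array the remaining one is assumed to vary like the other groups. Leaving out 1 array gave 2696 to 5113, 303 to 399 and 1452 to 2747 calls, and 6, 6 and 2 to 3 member calls. For IFN-λ2 against control the count was 3174 without control replicate 2, 2728 without control replicate 3 and 2696 without IFN-λ2 replicate 1. Between the cytokines it was 1452 without IFN-λ2 replicate 1 and 1644 without IFN-β replicate 3. The Mx1 to Rsad2 ratio, at -0.01, turned to 0.0433 with normexp. Normexp moved the median of all probes to 0.25 for IFN-λ2 and -0.06 for IFN-β against control. Only 2 control arrays limit every comparison with control.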
